A study of Homo sapiens with 4 samples.

Results

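Ribosome-protected fragments from HL60, an established human myeloid leukemia line, were described here as 1 of the 4 libraries of a series on leukemia cell lines. The library was chosen by its label, and its named nuclear protein-coding genes were ranked by their share of aligned bases and by TPM (a deposited level that divides by transcript length and depth). Per the labels, HL60 cells were bought from ATCC, kept in IMDM medium with 10% serum, and no treatment is named. They were lysed in a buffer with cycloheximide, which holds ribosomes on mRNA, and unprotected RNA was digested. K562, THP_1 and a line labelled MOLM13 make up the rest, each with 1 library. There were no replicates, so no test between lines was made, and intervals below cover counting error only.

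A ribosome shields a short stretch of the mRNA it is translating, so sequencing of the shielded fragments shows where a cell's ribosomes sit. Summed over a gene, the fragments give the part of all translation spent on that protein, and divided by length they give how densely its mRNAs are read. Promyelocytes, the precursors that HL60 resembles, are the stage at which neutrophils make the proteins of their azurophilic (primary) granules. A footprint share holds the amount of an mRNA and the number of ribosomes on each copy together, and these cannot be told apart here. Nor can more cells with signal and more signal per cell be told apart in a bulk library.

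The HL60 library held 973 megabases (Mb) of aligned sequence on all genes, of which 87.3% lay on named nuclear protein-coding genes. Those genes carried 849 Mb, or 29289016 fragments at the modal fragment length of 29 bases. Of 19873 such genes, 11208 had signal above 0 and 10442 had at least 600 aligned bases, the minimum used below. Mitochondrial ribosomal RNA took 6.85% of all bases, while snRNA and snoRNA genes took 11.6% and 13.1% of all TPM but 1.39% and 1.05% of bases. The other libraries held between 287 and 574 Mb on the same genes.

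The label was checked against cell type markers. All 10 neutrophil precursor markers passed the minimum, and together they held 2.65% of the signal, compared with 0.0132% in K562, 1.25% in THP_1 and 0.0343% in the library labelled MOLM13. MPO carried most of this value: the other 9 markers held 0.451% in HL60 and 1.23% in THP_1, so HL60 was the lower of these 2 without MPO. All 10 erythroid markers, the globins HBE1 and HBZ among them, were at 0 in HL60, which allows a share of up to 1.02e-05% each (3 fragments). Of the 8 monocyte and macrophage markers 7 also passed the minimum, at lower levels: CD14 stood at a TPM of 45.2, MSR1 was at 0 and CSF1R was at 3.81. Of 8 T and NK cell markers 6 were at 0, as were 5 of 6 B cell markers, and all 9 epithelial and fibroblast markers passed the minimum, with none above the TPM of 15.3 that KRT18 had. The file given for MOLM13 bears a different name from the one on its label, so which cells it holds is uncertain and its values are set out only as those of a library labelled MOLM13.

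A small set of genes held much of the signal. The 565 leading genes held 50% of the aligned bases, or 283 genes when ranked by TPM and 259 when genes that share exons with another gene were left out. The first gene alone held 2.20% (exact binomial 95% interval 2.19 to 2.20), the first 10 held 8.39%, the first 50 held 17.74% (17.72 to 17.75) and the first 100 held 23.9%. The 1000 leading genes held 61.7%. The 50 leading genes of each other library held 11.4% in K562, 14.5% in THP_1 and 10.2% in the library labelled MOLM13, and it took 821, 686 and 926 genes to reach 50% there. These libraries are shallower, and their part in the difference was not tested.

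**Figure D1:**
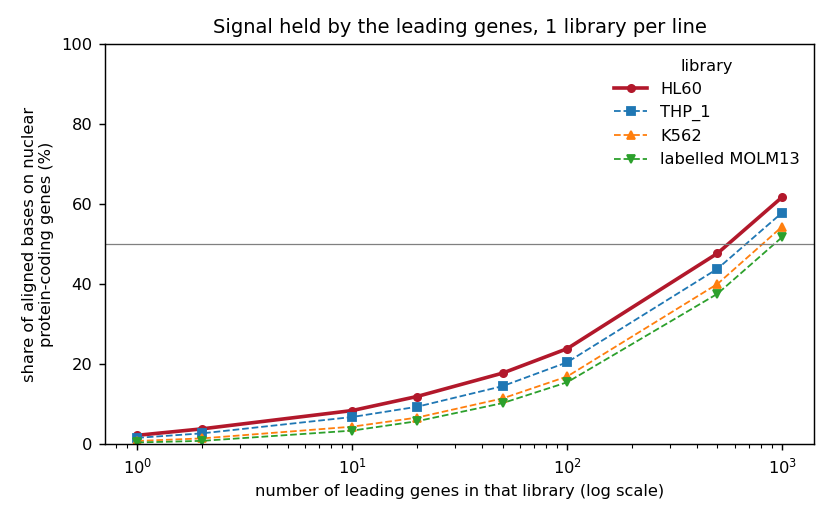
Cumulative share of aligned bases on nuclear protein-coding genes (percent) against the number of leading genes (log scale), with each library ranked by its own values. Points are the ranks computed, lines join them and the grey line marks 50%. HL60 lies above the other 3 libraries at each rank, with 17.7% on its first 50 genes.

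Myeloperoxidase led the ranking. MPO, the granule enzyme that makes hypochlorous acid from hydrogen peroxide, lies at chr17:58269855-58280935 on the minus strand of hg38, and held 18.7 Mb, 644085 fragments, at a TPM of 6658. SRGN encodes serglycin, the proteoglycan core on which granule proteins are packed, and lies at chr10:69088103-69104805. It held 1.61% of bases (1.61 to 1.62) and had the highest TPM, 12939. Both together held 3.81% of aligned bases on protein-coding genes. With partly coding exons split by length, 79.8% of the bases of MPO lay in annotated coding parts, but 49.4% of those of SRGN. ENO1, described next, had 87.8%, and the protein-coding genes together 78.0%. Counted in the coding part only, SRGN thus fell below ENO1. MPO stood at 0 in K562, 0.0126% in THP_1 and 0.00483% in the library labelled MOLM13, whereas SRGN reached 1.12% in THP_1 and at most 0.0207% in the other two.

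A glycolytic, a cytoskeletal and a blood cell gene followed. ENO1, the glycolytic enolase, held 1.02% at a TPM of 5591. ACTB, cytoplasmic beta actin, held 0.888% at a TPM of 5053. ARHGDIB, a regulator of small GTPases in blood cells, held 0.548% at a TPM of 4841. Its share was 0.00814% in K562, 0.139% in THP_1 and 0.0364% in the library labelled MOLM13. No other gene passed 0.5%: HSPA8, a constitutive HSP70 chaperone, had 0.462%, and GPI, the isomerase that ranked thirtieth, had 0.211% (0.210 to 0.213). With 1 library there is no spread between cultures, so the order of close neighbours such as PKM at 0.434% and RACK1 at 0.433% is not settled.

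**Figure D2:**
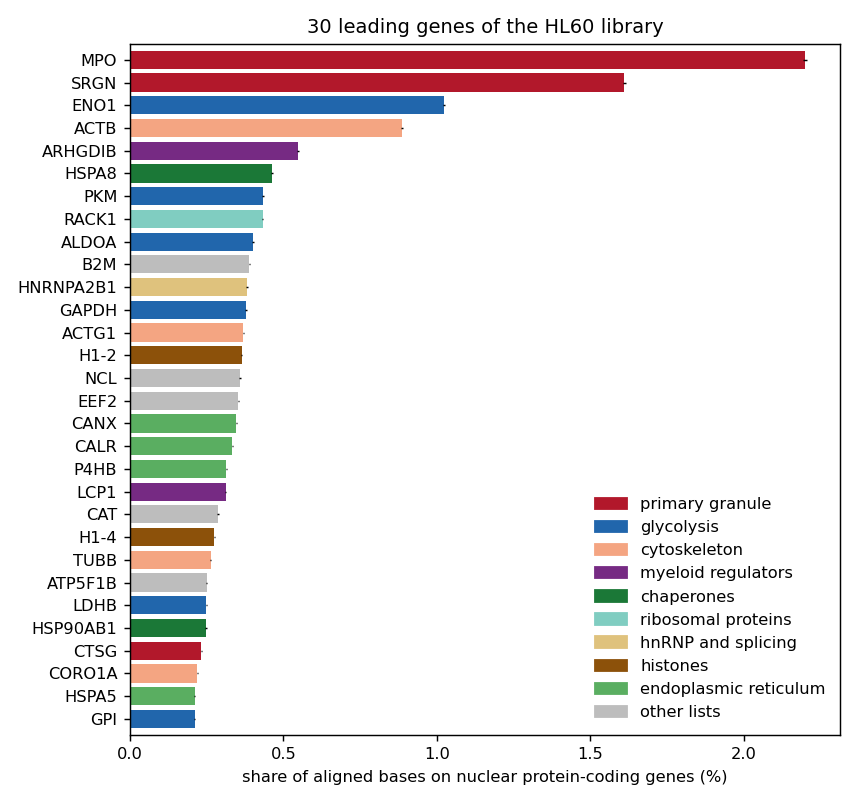
Share of aligned bases (percent) of the 30 leading genes of the HL60 library, with bars coloured by functional list and thin error bars for the exact binomial 95% interval, which covers counting error only. MPO and SRGN stand at 2.20% and 1.61%, and the bars fall to 0.211% at GPI.

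The leading genes were read by function with 22 lists of 1104 nuclear genes, which together held 51.2% of the signal. Of the 50 leading genes, 48 were in a list, against 1104 of all 19873 genes. Members and lists were chosen with earlier results of these data known, so this high count can be partly built in. TFRC, the transferrin receptor for iron uptake, and TMBIM6, an endoplasmic reticulum membrane protein, were in none, at 0.169% and 0.154%. Glycolysis and the pentose phosphate pathway supplied 9 of the 50, the most of any list, followed by 6 each for ribosomal proteins and the cytoskeleton and 5 histones. The median TPM over all genes at the minimum was 9.05, and the list medians below are to be read against it.

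Primary granule genes held 4.56% of bases and 4.33% of TPM, with 19 of 24 at the minimum and 5 at 0. Besides MPO and SRGN the list was far lower, since its median TPM was 160. CTSG, the serine protease cathepsin G, held 0.232% at a TPM of 2396. The related proteases AZU1 (azurocidin, without protease activity), PRTN3 (proteinase 3) and ELANE (neutrophil elastase) had TPMs of 352, 169 and 109, so CTSG exceeded each of them in this library. In THP_1 the shares of CTSG, AZU1 and PRTN3 were 0.339%, 0.194% and 0.110%, against 0.232%, 0.0330% and 0.0172% in HL60. Other granule proteins were intermediate: LYZ (lysozyme) had a TPM of 588, MS4A3 of 471, BPI, which binds bacterial endotoxin, of 386, and SERPINB1, an inhibitor of the granule proteases, of 366. Of the eosinophil granule genes, RNASE2 had a TPM of 338, above PRTN3 and ELANE, PRG2 of 152 and EPX of 3.05. DEFA4 had a TPM of 35.8, while DEFA1, DEFA1B and DEFA3, near-identical copies whose values are uncertain, were listed at 0 beside PRG3 and PRSS57. The whole list held 0.0858% in K562, 2.52% in THP_1 and 0.112% in the library labelled MOLM13. MPO and SRGN made up 3.81% of the 4.56% in HL60, and without these 2 genes the list held less in HL60 than in THP_1.

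Myeloid regulators and receptors held 2.47% of bases, with 59 of 63 at the minimum. LCP1, the actin bundler of leukocytes, held 0.312%. MYC, a growth-promoting transcription factor, held 0.199% at a TPM of 829, against 173 in K562, 126 in THP_1 and 193 in the library labelled MOLM13. The calcium-binding pair S100A9 and S100A8, which form calprotectin, had TPMs of 3173 and 2129. LAPTM5, a lysosomal membrane protein of blood cells, held 0.140%. CYBB, the catalytic subunit of the phagocyte NADPH oxidase, held 0.114%, against 0.00583% in THP_1. FLT3, KIT, CSF2RA and MYCN were at 0.

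Enzymes that handle peroxide and thiols held 0.938%. CAT (catalase), which breaks down the hydrogen peroxide that myeloperoxidase uses, held 0.287% of all protein-coding bases, or 30.6% of this list. PRDX1, a peroxiredoxin, held 0.114% and TXN, thioredoxin, 0.110%. The share of CAT was 0.0260% in K562, 0.186% in THP_1 and 0.00845% in the library labelled MOLM13. PRDX1 had its lowest share in HL60 of the 4 libraries, with 0.197%, 0.139% and 0.251% in the others. MHC class I genes held 0.625% of all protein-coding bases, and B2M, the invariant light chain, 0.388%. HLA-B had 0.101% and HLA-C 0.0467%, and reads of these similar and variable genes are uncertain. Lysosomal genes held 0.580%, led by the proteases CTSD at 0.133% and CTSC at 0.0982%. CTSC (cathepsin C) activates the granule proteases named above.

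Glycolysis and the pentose phosphate pathway held 3.74% of bases with 29 genes, 27 of them at the minimum. After ENO1 came PKM (pyruvate kinase) at 0.434%, ALDOA (aldolase) at 0.401%, GAPDH at 0.378% and LDHB (lactate dehydrogenase B) at 0.249%. The partner subunit LDHA had 0.186% but the higher TPM, 2449 against 1860 for LDHB. TPM depends on the transcripts that bases are assigned to. For LDHA, 40.9% went to a transcript annotated for nonsense-mediated decay, which is shorter than the leading transcript of LDHB. LDHA had fewer aligned bases than LDHB. The longest coding region annotated for any transcript was 1083 bases in LDHA and 1002 in LDHB. These need not be the regions used in HL60. The TPM order thus does not show which of these mRNAs was read more densely. TKT, the transketolase of the pentose phosphate pathway, held 0.183%, and TALDO1, the transaldolase, 0.138%. PGK1 held 0.158%. ENO2, the enolase of neurons, was at 0. The list's share was 2.23% in K562, 1.82% in THP_1 and 2.11% in the library labelled MOLM13. Nuclear-encoded genes of mitochondrial energy metabolism held about the same as glycolysis, 3.82%, but over 116 genes. Their leading members, the ATP synthase genes ATP5F1B, ATP5MC3 and ATP5F1A, held 0.250%, 0.142% and 0.106%. The 13 genes encoded in the mitochondrion, read by that organelle's own ribosomes, added a signal equal to 0.992% of the nuclear total, led by MT-ND5 and MT-CO1 at 0.205% each.

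Cytoskeletal genes held 4.41%, with 74 of 75 at the minimum. ACTG1, gamma actin, held 0.369%, TUBB, a beta tubulin, 0.263%, and CORO1A, a coronin of leukocytes, 0.220%. CFL1 (cofilin), which cuts actin filaments, held 0.206%, and MSN (moesin), which ties actin to the membrane, 0.155%. In THP_1 this list held 6.61%, more than in HL60. CORO1A stood at 0.00105% in K562, 0.0742% in THP_1 and 0.0174% in the library labelled MOLM13. ACTB and ACTG1 share most of their coding sequence with each other and with pseudogenes, so the split between them is uncertain.

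Protein synthesis began with the ribosome itself. The 80 ribosomal protein genes held 4.72% of bases (4.71 to 4.72) and 9.89% of TPM, the highest TPM share of any list. Small subunit genes held 2.51% over 33 genes and large subunit genes 2.21% over 47. Ribosomes carry 1 copy of most of these proteins, yet their TPMs ran from 0 to 2746, with 23 genes at 1000 or more and 17 under 100. RACK1, a scaffold on the small subunit, was highest at 0.433% of bases. RPS14 held 0.206%, RPS3 0.176%, RPL11 0.167% and RPS24 0.143%. At the low end RPS28 was at 0, RPL7 had a TPM of 1.35 and RPS10 of 3.36.

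The low ribosomal protein genes were often those with many pseudogenes. The 20 lowest had a median of 19 pseudogenes named after them and the 20 highest a median of 4. Over the 80 genes the Spearman correlation between the number of pseudogenes and aligned bases was -0.54, which is a description across genes of 1 library that share depth and alignment. RPL7 has 61 such pseudogenes, RPL21 has 72 at a TPM of 24.7, and RPL23A has 91 at a TPM of 104. RPL35A went the other way, with 36 pseudogenes and a TPM of 1660, and RPS28 was at 0 with 5. Ribosomal protein pseudogenes together held 1.13 Mb against 40.1 Mb on the genes. How reads with several matches were handled is not given in the sources used here, and its part in this pattern was not tested.

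**Figure D3:**
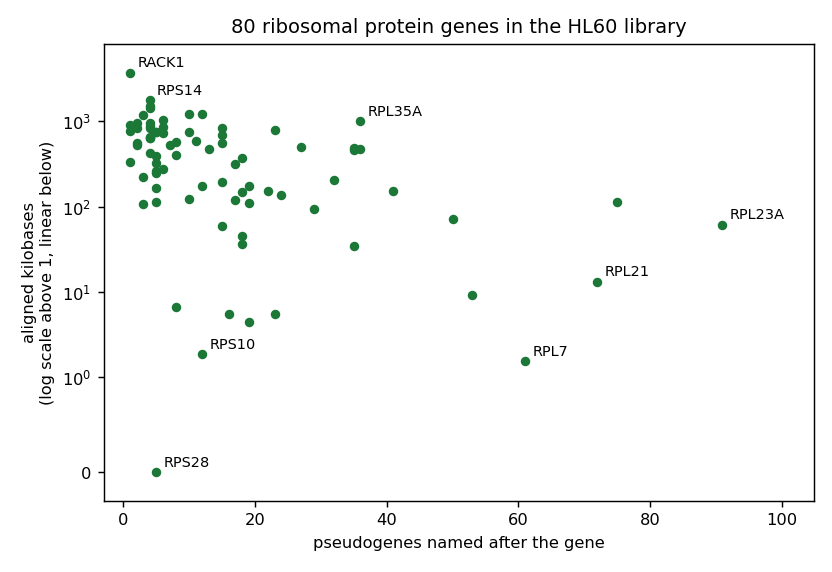
Aligned kilobases of each of 80 ribosomal protein genes in the HL60 library (log scale above 1, linear below) against the number of annotated pseudogenes that carry the gene's name. Points are genes. RACK1 and RPS14 are at the top left with few pseudogenes, and RPL7, RPL21 and RPL23A lie low at the right with 61, 72 and 91.

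A shared sequence feature of this group is the 5′ terminal oligopyrimidine tract, a run of C and T at the very start of the mRNA through which growth signalling controls the translation of the ribosome's own genes. RefSeq transcription starts on GRCh38.p14 were searched for a C at the first base followed by at least 4 bases of C or T, on the strand of the gene. Of 64 ribosomal protein genes with a start sequence, 48 (75%) had such a run at 1 or more of their starts. Among all genes at the minimum it was 675 of 8529 (7.91%), and among all 35116 annotated starts 4.07%. Translation elongation factors had it in 3 of 7, initiation factors and related RNA-binding proteins in 12 of 49, the 50 leading genes in 8 of 43 and histones in 0 of 61. The sequences below show such runs in ribosomal protein genes with much signal and in the elongation factors EEF2 and EEF1A1, and 3 starts without one, those of ENO1, HSPA8 and CTSG. Some other leading genes have a run too, HSP90AB1 among them. Each sequence has 5 bases before the start and 20 from it, 5′ to 3′, with the pyrimidine run in capitals.
RACK1: tctctCTCTCTTTCactgcaaggcg
RPS14: ccactCTCTCTTTCCggtgtggagt
RPS3: cacttCCTTTCCTTTCagcggagcg
RPL11: gctttCTCTTCCTgctctccatcat
RPS24: tggttCTCTTTTCCTCCTTggctgt
EEF2: gcgttCTCTTCCgccgtcgtcgccg
EEF1A1: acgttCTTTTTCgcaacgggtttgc
ENO1: cggacagtatctgtgggtacccgga
HSPA8: ccggtctcattgaactcgcctgcag
CTSG: gcagcaactgactgggcagcctttc
The windows lie at chr5:181243887-181243911 (minus) for RACK1, chr5:150449720-150449744 (minus) for RPS14, chr11:75399513-75399537 (plus) for RPS3, chr1:23691801-23691825 (plus) for RPL11 and chr10:78033858-78033882 (plus) for RPS24. Those of EEF2, EEF1A1, ENO1, HSPA8 and CTSG lie at chr19:3985444-3985468, chr6:73521013-73521037, chr1:8878667-8878691, chr11:123062117-123062141 and chr14:24576231-24576255, all on the minus strand. Runs in the 5 ribosomal protein genes shown were 8 to 14 bases long. A run in these letters is a description of the annotated start and not of the start used in HL60, and MPO and SRGN had no entry in the table.

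Elongation factors, which move the ribosome along, held 0.451%, and EEF2, the translocation factor, made up 78.3% of this list with 0.353% of all protein-coding bases. EEF1A1, which delivers aminoacyl-tRNA, held 0.0229% at a TPM of 73.9, although its product is known as a very abundant protein. Its 39 named pseudogenes held 0.243 Mb, more than the 0.195 Mb on the gene. EEF1G was near 0, with 14.3 fragments in HL60, under the minimum. Initiation, termination and regulatory factors held 1.85% over 60 genes, led by the helicase EIF4A1 at 0.0797%, EIF4G2 at 0.0773%, the nascent chain protein NACA at 0.077% and the EIF3 subunits EIF3I and EIF3M at 0.0766% and 0.0758%. Aminoacyl-tRNA synthetases held 0.772%, with all 22 at the minimum and EPRS1, for glutamate and proline, highest at 0.0882%. Ribosome biogenesis genes held 1.53% of all protein-coding bases, NCL (nucleolin) 0.358%, the helicase DDX21 0.101% and FBL (fibrillarin) 0.0658%.

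Protein folding and disposal took a further 7.73% when the 3 lists are added. Endoplasmic reticulum chaperones and translocation genes, through which MPO and other granule proteins enter the secretory path, held 2.89%, against 1.71% in K562, 2.41% in THP_1 and 2.07% in the library labelled MOLM13. CANX and CALR, the lectin chaperones calnexin and calreticulin, held 0.347% and 0.333%, P4HB, a protein disulfide isomerase, 0.314%, and HSPA5 (BiP) 0.212%. The shares of P4HB were 0.0626% in K562, 0.187% in THP_1 and 0.0623% in the library labelled MOLM13. Cytosolic and mitochondrial chaperones held 2.50%, with HSP90AB1 at 0.248%, CCT5 at 0.162% and HSP90AA1 at 0.156% after HSPA8. HSP90AB1 had a lower share in HL60 than in the other 3 libraries, where it was 0.632%, 0.335% and 0.371%. Proteasome and ubiquitin genes held 2.34%, led by the core subunit PSMB1 at 0.107% and the ATPase VCP at 0.101%.

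Nuclear functions held several of the large shares. Genes for hnRNP, SR and splicing proteins held 4.70% over 91 genes, led by HNRNPA2B1 at 0.381%, HNRNPU at 0.166%, DDX5 at 0.142% and HNRNPH1 at 0.124%, and no one gene dominated the list. Replication-dependent histones held 3.06% of bases but 8.62% of TPM, a measure in which short mRNAs weigh more. The linker histones H1-2 and H1-4 held 0.363% and 0.275%, and the core histones H2BC5, H4C3 and H3C2 0.165%, 0.156% and 0.154%. H1-2 had a TPM of 4821 and H4C3 of 3744. H3C4 held 0.139%, against 0.0093% in K562, 0.0598% in THP_1 and 0.0292% in the library labelled MOLM13. Histone genes encode near-identical proteins from similar mRNAs, so values of single copies are uncertain, and 8 of the 70 were listed at 0. Chromatin genes held 1.76%, with TOP2A, a topoisomerase, at 0.114% and the variant histone H2AZ1 at 0.111%. DNA replication and nucleotide synthesis held 1.78%, with PRKDC and MCM7 at 0.0975% and 0.0974% and the sliding clamp PCNA at 0.0942%.

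Biosynthetic lists were smaller. Lipid and cholesterol synthesis held 1.03%, with the fatty acid synthase FASN at 0.141% and HMGCS1, an early cholesterol enzyme, at 0.131%. HMGCS1 stood between 0.0574% and 0.0597% in the other libraries. Amino acid synthesis and transport held 0.640%, led by MAT2A, which makes S-adenosylmethionine, at 0.0657% and OAZ1, which restrains polyamine synthesis, at 0.0644%.

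**Figure D4:**
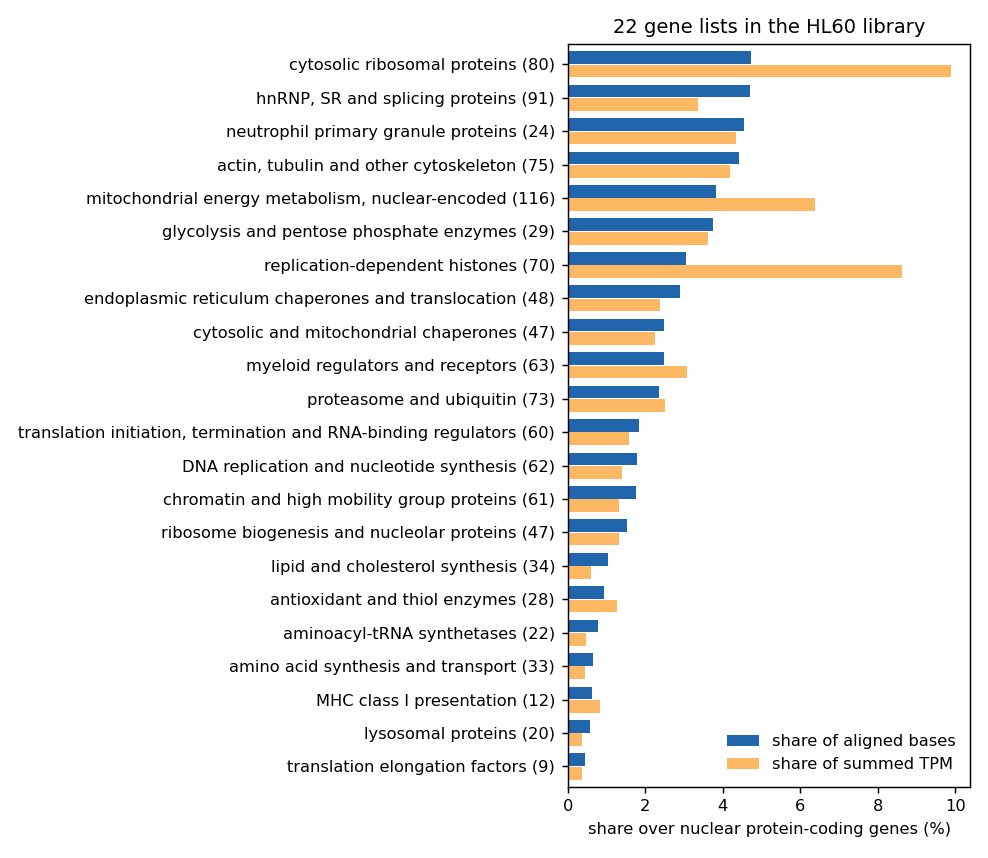
Share of aligned bases (blue) and of summed TPM (orange) over nuclear protein-coding genes, in percent, for 22 functional lists of the HL60 library, with the number of genes in brackets. Ribosomal proteins go from 4.72% of bases to 9.89% of TPM and histones from 3.06% to 8.62%.

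Ranking by length-adjusted TPM changed which genes led. Of the 50 leading genes by bases, 29 were also among the 50 by TPM. The first 5 genes were the same in both, with MPO and SRGN in exchanged places. Behind them, TPM brought up H1-2, H4C3, B2M, H1-4, H2BC5 and S100A9, then H3C2, H3C4, RPS21 and H4C8 within the first 20. RPS21, a small ribosomal protein, had a TPM of 2584 and ranked 119 by bases. MIF, a small cytokine-like protein in no list, had a TPM of 2192. The median coding length was 456 bases among the 50 leading genes by TPM, 1251 among those by bases and 1410 over 10380 genes at the minimum. Coding length was that of the longest coding region annotated for any transcript of a gene. Long genes went down: FASN, with a coding length of 7533 bases, ranked 54 by bases and 685 by TPM.

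Values were also compared across the subunits of complexes usually built with equal copies. Whether HL60 makes these subunits in equal amounts was not tested, so the ranges describe the values and not measurement error alone. The complexes were chosen after the list totals were known. In the CCT chaperonin, which folds actin and tubulin, the 8 subunits had TPMs from 193 to 1545 and a coverage of the coding part from 166 to 731, a 4.41-fold range. Only 1 coverage per exon is given, so an exon that is partly coding was split by length. Bases in any annotated coding segment, summed over transcripts, were divided by the longest coding region annotated for the gene. The 14 genes of the proteasome core ran from 119 to 1159 in TPM and from 232 to 1048 in coding coverage, a 4.52-fold range. The 6 subunits of the MCM helicase, which opens DNA for replication, ran from 91.5 to 346 in coding coverage. The ranges were narrower by coding coverage than by TPM in these 3 complexes, but wider in the large ribosomal subunit, where coding coverage ran from 0.177 to 2467 and TPM from 1.35 to 2203. PSMB2 had the lowest TPM of the core, 119, but a coding coverage of 567, close to the median of 571. CCT5 had a TPM 2.23 times that of CCT7 and a coding coverage 1.21 times as high.

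Coverage varied along the exons of the leading genes. MPO has 12 exons in its main transcript, with a mean coverage of 5804 reads per base. The 10 fully coding exons had coverages between 4914 and 9504, the first exon, 46.5% coding, had 10611, and the last exon, 1009 bases long and 20.3% coding, had 2352. SRGN has 3 exons: the first, 59.0% coding, had a coverage of 24608, the fully coding second exon 18644, and the last, 26.4% coding, 7926. In both genes coverage was lowest in the exon that is mostly 3′ untranslated. CTSG was flat, with 1660 to 2587 over its 5 exons. The least even leading transcripts among the first 100 genes were those of RPS24, PGK1, ATP5F1A, RPS19 and CANX. The measure was the highest exon coverage over the mean of the whole transcript, untranslated exons included. A long exon with little coverage lowers that mean: the last exon of CANX, 3051 bases and 1.67% coding, had a coverage of 12.1. In RPS24 an exon of 19 bases had 9.98 times the mean coverage, in PGK1 an exon of 51 bases 9.27 times, and in CANX an exon of 174 bases 5.65 times, with 20.0% of that transcript's bases. A gene was called uneven if 1 exon under 20% of its leading transcript's length held over 80% of that transcript's bases. No gene among the 50 leading ones was uneven, against 149 of 10442 genes at the minimum, a rate so low that 50 genes can hold none. B2M had 80.3% on an exon of 279 bases, but its transcript has 1081 bases, so that exon is over the length limit.

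Several leading genes were assigned almost wholly to 1 coding transcript. MPO had 99.9% of its bases on 1 coding transcript, SRGN 98.4%, ARHGDIB 93.0%, LCP1 99.9%, CAT 99.3% and CTSG 91.8%. Of the 50 leading genes, 45 had more than 1 annotated transcript, and 18 of these (40%) had at least 90% of their bases on 1 of them. Over all genes at the minimum it was 6088 of 9851 (61.8%). The most divided were P4HB, with 72 transcripts and 21.1% on the first, then BSG at 33.0%, HNRNPU at 38.0%, ALDOA at 38.5% and ATP5MC3 at 39.4%. PKM was divided among coding transcripts, with 66.1% and 23.0% of its bases on the first 2. StringTie divides fragments of a shared exon among transcripts by its model, and fragments of 29 bases seldom span the exon junctions that tell transcripts apart.

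Much of the leading genes' signal was assigned to transcripts annotated as retaining an intron. Such transcripts held 18.6% of bases in the 50 leading genes and 8.84% over all nuclear protein-coding genes. By list it was 33.8% for glycolysis, 28.4% for ribosomal proteins, 27.8% for the cytoskeleton and 0.437% for primary granule genes. The leading transcript was of this type in 8 of the 50 genes: ENO1 (57.0% of its bases), ACTB (50.6%), RACK1 (86.8%), GAPDH (43.7%), ACTG1 (97.0%), P4HB (21.1%), CORO1A (90.5%) and RPS24 (85.0%). In LDHA and RPS3 it was a transcript annotated for nonsense-mediated decay, with 40.9% and 73.7%.

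Coverage by exon shows where those bases lay. The main transcript of CORO1A holds an exon of 1512 bases, of which 21.3% is exonic in coding transcripts, and its coverage of 215 was 0.181 times the median of 1186 over 7 fully coding exons. In RACK1 the exon of 854 bases that includes an intron, 37.9% coding, had a coverage of 1142, 0.425 times the median of 2687 over 4 fully coding exons. In both genes coverage was thus lower in the exon that holds an intron than in the coding exons. Most of that exon is intron, so its mean is lower even if only its exonic part is covered like the other exons. The ratio is therefore not the level of the intron. In ENO1 and P4HB such an exon was lower too, at 1517 against a median of 3451 and at 74.2 against 444. GAPDH differed, since its exon of 327 bases, 68.8% exonic in coding transcripts, had a coverage of 1272, 1.40 times the median of 906 over 4 fully coding exons. In ACTG1 the exon of 700 bases, 88.7% exonic, had 1546 against 1369 in its fully coding exon. The exon of 1120 bases in ACTB, 60.6% exonic, had 1665 against 1953, a ratio of 0.853. The table gives 1 coverage per exon, so fragments within an intron were not counted separately. For GAPDH 2 such transcripts took 43.7% each, and the last exon of the first of them had a coverage of 4.20 against 1278 in the exon before.

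**Figure D5:**
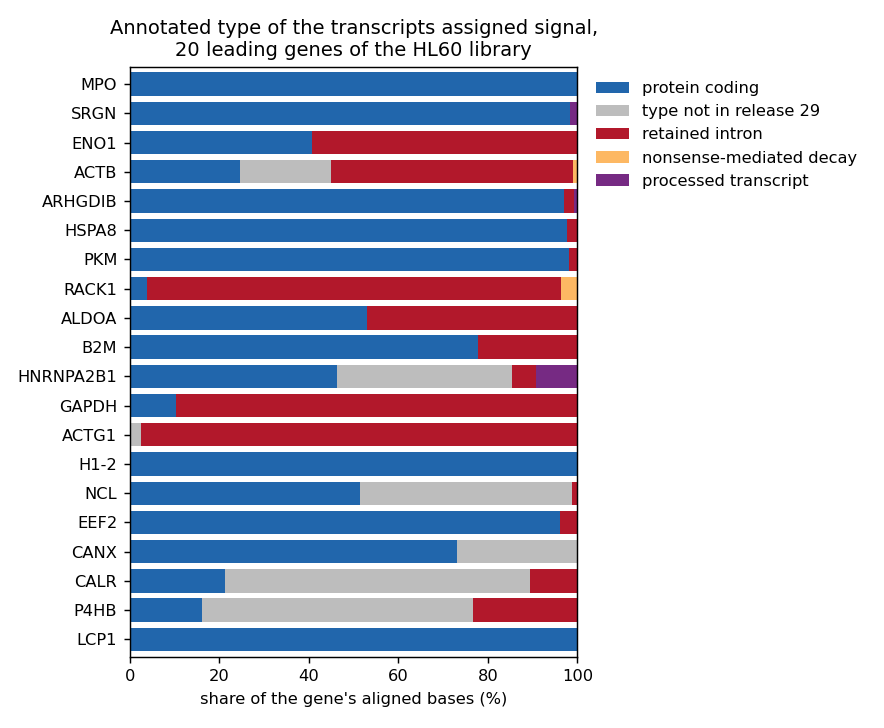
Share of each gene's aligned bases (percent) by the annotated type of the transcript they were assigned to, for the 20 leading genes of the HL60 library from MPO at the top. Types come from GENCODE release 29, and transcripts with no type there are grey. MPO, SRGN, HSPA8 and LCP1 are nearly all protein coding, and RACK1, GAPDH and ACTG1 are mostly retained intron.

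Some leading genes carry other genes within their bounds. Hosts of small nucleolar RNAs made up 6 of the 50 leading genes (12%), against 210 of 10442 genes (2.01%) at the minimum. They were HSPA8, RACK1, NCL, EEF2, ATP5F1B and RPS3. Of the 50 genes, 26 share an exon position with another gene on either strand, as 51.9% of genes at the minimum did, and without strand in the quantification these reads cannot be told apart. MPO, SRGN, ACTB, ARHGDIB, PKM, B2M, CAT, CTSG and S100A9 share none.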

How the data were processed

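Per the file headers, the deposited values came from StringTie, run on read 1 against GENCODE release 37 without new transcripts or a strand option. Per transcript, the authors deposited TPM, FPKM and a coverage signal (mean reads per base), and per exon the coverage alone. The submitters' processing notes name STAR 2.7.8a, StringTie 2.1.5, Bowtie2 2.4.2 and Trim Galore 0.6.6, with hg38 as the build. FPKM was not used.

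Aligned bases were computed as coverage times length, summed per gene, and TPM was summed per gene. TPM in the file sums to 1000000. Division by 29, the modal fragment on single-exon transcripts, gave fragments, from which exact Clopper-Pearson 95% intervals follow. Gene types came from GENCODE release 29 (58405 genes) and RefSeq (59), and 2187 genes had none. Coding parts came from release 29 and start sequences from RefSeq. Named genes are the 30 leading by bases, the 20 by TPM, up to 5 per list, and the 5 least even or most divided of the leading 100. Genes at 0, AC073140.1 and some further list members were named after their values were seen. Some genes that the rule names are left out. Members and lists were chosen with earlier results of these data known. Functions were tested on simulated data. Alternatives are in the closing section. Python 3.11.15, pandas 2.3.3, NumPy 2.4.6 and SciPy 1.17.1 were used.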

Additional observations from a re-analysis of the deposited data

Results flagged for a closer look

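The gene AC073140.1, which has no class in GENCODE release 29 or RefSeq and entered no comparison, held 3.71 Mb of aligned sequence in HL60, which is 0.381% of all bases. It was singled out because it holds signal outside the protein-coding genes described, and it was chosen after its values were seen. The gene lies at chr7:148941483-148941638 on the plus strand of hg38 and is 156 bases long. Its TPM was 27134 in HL60, 97248 in K562, 66638 in THP_1 and 54226 in the library labelled MOLM13, so HL60 had the lowest value of the 4 libraries.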

How the results depend on the processing

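All values rest on 1 library, so no culture-to-culture error is known. No paired analysis was possible because each line has 1 library, and no replicate could be left out. With deposited TPM in place of aligned bases, 283 genes held 50% of the signal, the 50 leading genes held 23.3% and ribosomal proteins 9.89%. Without genes that share exons, which removes more than 1 in 2 genes at the minimum, these were 259 genes, 26.04% and 3.81%. Without uneven genes the shares were 17.8% and 4.73%, and in the coding part only, with partly coding exons split by length, 17.9% and 4.45%. With all genes as denominator they were 15.5% and 4.12%. The leading sets by bases and TPM shared 11 genes among the first 20 and 57 among the first 100. At a threshold of 50% instead of 90%, 43 of the 50 leading genes had 1 dominant isoform instead of 23. These and the other dominant isoform counts here include genes with 1 annotated transcript, which are 5 of the leading 50 by bases. The count of 18 among 45 genes given earlier leaves them out. The 600-base minimum left the number of genes and both shares within their intervals. Counts within 1.5 times of those reported were found under the remaining settings: 560 and 525 genes held 50% without uneven genes and in the coding part, 31 genes were shared by the 2 rankings without genes that share exons, and 26, 18 and 25 genes had a dominant isoform at 80%, by TPM shares and among the leading genes by TPM.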
